A study of Rattus norvegicus with 6 samples.

Results

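The genes described here are those that make, carry and receive serotonin: the tryptophan hydroxylases Tph1 and Tph2, the serotonin transporter Slc6a4, and the receptors Htr1a, Htr1b, Htr2a, Htr2b, Htr2c, Htr3a and Htr7. They were taken by name, as every probe of the deposited series table whose single gene symbol in the platform annotation is one of these 10. Of the 10 genes, 9 had at least 1 such probe, with 17 probes in all of the 33249 tested, and Htr3a had none and is not analysed here. Tph1, Tph2, Htr1a, Htr1b and Htr7 had 1 probe each, Slc6a4 and Htr2b had 2, and Htr2a and Htr2c had 4. All 17 probes had a value above 0 on all 6 arrays.

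Cells cultured from the brainstem gave the RNA, taken from a rat strain with inherited hypertension (SHR, spontaneously hypertensive) and from its normotensive comparison strain (WKY, Wistar Kyoto). Each strain had 3 arrays of a single-colour CodeLink rat platform, and each array carried RNA of cells pooled from 3 dishes. The labels give no age, sex, culture time or treatment for either strain. The replicates of a strain are called biological, but whether they were raised from separate animals or on separate occasions is not said, so a p-value here rests on the spread between these 3 pools of each strain. In such pooled cultures, fewer cells of a type and less RNA per cell cannot be told apart.

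Serotonin is made from tryptophan in a rate-limiting hydroxylation by Tph2 in neurons and by Tph1 in peripheral tissues and the pineal gland, followed by decarboxylation by Ddc. In the brain its source is the raphe nuclei, which lie along the midline of the brainstem and whose neurons are recognised by Tph2, Slc6a4 and the transcription factor Fev. The receptors fall into families that couple to different G proteins: those of the Htr1 family to inhibition of adenylyl cyclase, those of the Htr2 family to phospholipase C, and Htr7 to stimulation of adenylyl cyclase, while Htr3a forms an ion channel. Serotonin acts on brainstem centres of breathing and of autonomic outflow to heart and vessels, and Htr2c is known for very high expression in the choroid plexus.

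Median signals before normalization between arrays lay between 439 and 571 intensity units on the probes of the series table, and correlations of log2 values across probes were 0.969 to 0.979 within a strain and 0.964 to 0.977 between strains. Of the markers with a probe, 8 of 9 astrocyte genes, 8 of 9 microglial and macrophage genes, 9 of 11 genes of the oligodendrocyte lineage, 7 of 10 of fibroblasts and meningeal cells, 6 of 9 of neurons, 4 of 8 of ependyma and choroid plexus, 3 of 7 each of smooth muscle with pericytes and of endothelial cells, and 1 of 5 of mast cells lay above the array median. As list scores (the mean over a list of each gene's log2 deviation from its own average), fibroblast and meningeal markers (-0.07 to 0.53 in SHR, -0.47 to -0.16 in WKY) and ependymal and choroid plexus markers had higher mean scores on every SHR array, microglial markers a lower one (-0.11 to -0.00 in SHR, 0.04 to 0.11 in WKY), and the other 6 cell type lists overlapped. As differences, SHR minus WKY, the fibroblast and meningeal list held 7 genes above 0 and 3 below, and the microglial list 2 above and 7 below. Trem2, with the smallest p of the microglial list, gave -0.38 ± 0.31 (SE) at a spot with only 2.71% of probes dimmer. Of the oligodendrocyte lineage, 10 of 11 genes were below 0 (median -0.76). The medians of the other lists were -0.13 for neurons, -0.01 for astrocytes, -0.09 for microglia, 0.21 for fibroblasts, 0.85 for choroid plexus, -0.29 for smooth muscle, 0.18 for endothelium and 0.10 for mast cells. The 8 genes of the interferon response, with a median of -0.32, set the array WKY 1 apart. Their score was -1.92 on WKY 1, against 0.99 and 1.11 on WKY 2 and WKY 3 and between -0.49 and 0.63 in SHR.

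No serotonin gene differed between the strains past an adjusted p of 0.05 (limma, Benjamini-Hochberg over all 33249 probes), and neither did any other probe: 0 of 33249 passed, which is 0% of probes, while 2545 stood at an unadjusted p under 0.05. At an unadjusted p under 0.05 stood 1 of the 17 probes, that of Htr1a, lower in SHR, against 7.65% of all probes in either direction and 4.01% lower in SHR. The same probe was the 1 of 17 at which the SHR and WKY values did not overlap, against 13.8% of all probes (7.48% with SHR lower and 6.35% with SHR higher). These shares are near those of the array as a whole and are no result about serotonin genes as a group. Differences are log2 values, SHR minus WKY, on which 1 is a 2-fold difference. None of the 17 reached 2-fold, as 2.14% of all probes did, 10 were below 0 and 7 above, and their median was -0.01 (log2), equal to that of all probes at this rounding. With 1 probe per gene the median of the 9 was -0.06, and it was near 0 without SHR 1. In intensities not normalized between arrays it was 0.09, where the median of all probes was 0.12. No common direction is given.

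**Figure D1:**
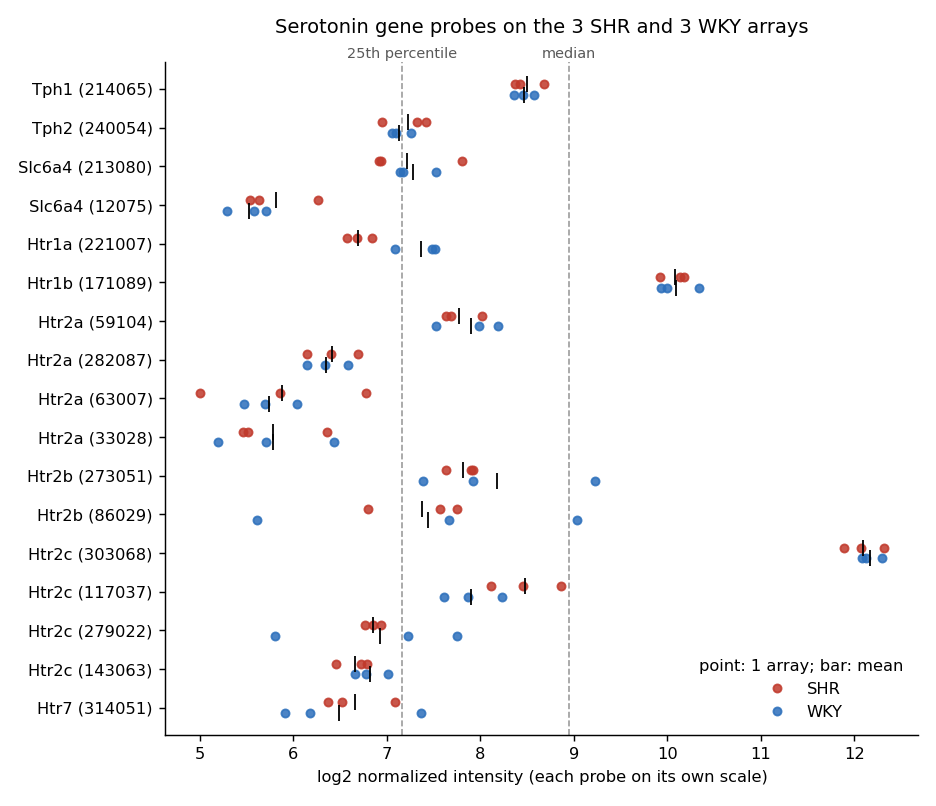
Log2 normalized intensity of each serotonin gene probe (rows, probe number in brackets) on the 3 SHR arrays (red) and the 3 WKY arrays (blue), with black bars at the strain means and dashed lines at the 25th percentile and the median of the arrays. Only the Htr1b probe and Htr2c probe 303068 lie above the array median on all 6 arrays, and only the Htr1a probe has SHR and WKY points that do not overlap.

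Most of these probes were dim. On all 6 arrays the Htr1b probe and 1 of the 4 Htr2c probes lay above the array median of 494 units, and both Htr2b probes did so on 1 array. By mean brightness 8 of the 17 were among the dimmest 25% of all probes tested. A probe's brightness depends on its sequence as well as on its transcript, so these positions say how near a spot is to the lower end of the array and not which transcript is more abundant. Over the whole array, dimmer probes varied more. The median standard deviation between arrays of a strain was 0.48 (log2) in the dimmest 25% of all probes and 0.16 in the brightest 25%. Single serotonin probes departed from this trend, with 0.19 at the dim Htr1a probe and 1.27 at the brighter Htr2b probe 86029.

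Of the enzymes, Tph1 was measured by a probe designed on an EST and showed no strain difference. Its intensities were 332, 412 and 344 units in SHR and 329, 382 and 351 in WKY. The ranges overlap almost wholly, with the highest value on SHR 2 and the lowest on WKY 1. The difference was 0.03 ± 0.14 (SE, n = 3 arrays per strain), and its 95% interval ran from 0.803-fold to 1.30-fold of the WKY level.

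Tph2, the neuronal enzyme, gave 172, 123 and 161 units in SHR and 153, 133 and 137 in WKY. SHR held both the highest and the lowest value. The log2 means were 7.23 ± 0.25 (SD, n = 3) and 7.14 ± 0.11, a difference of 0.10 ± 0.17 (SE) with an interval from 0.809-fold to 1.42-fold. Of all probes tested, 25.1% were dimmer, so by mean brightness the spot stood just outside the dimmest 25%. On 3 of the 6 arrays it lay below the 25th percentile of the array.

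Slc6a4, which returns released serotonin into the neuron, had 2 probes designed on the same RefSeq transcript. The brighter, probe 213080, gave 121, 123 and 224 units in SHR and 185, 144 and 142 in WKY. SHR 3 alone stood above every WKY array, and SHR 1 and SHR 2 stood below them all. The difference was -0.06 ± 0.28 (SE), and it was -0.36 at its lowest and 0.09 at its highest when single arrays were left out. The second, probe 12075, gave 46.4, 77.2 and 49.7 units in SHR and 47.8, 52.3 and 39.1 in WKY, among the dimmest 1% of spots, with a difference of 0.29 ± 0.23, which was 0.06 without SHR 2. Its highest array was SHR 2, where the brighter probe was near its minimum, so the 2 probes of this transcript gave no common order of the arrays.

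Htr1a, an inhibitory receptor found on serotonin neurons themselves and on their targets, had the largest difference of the 17 probes. Its probe gave 114, 102 and 95.7 units in SHR and 183, 136 and 179 in WKY. All 3 SHR arrays lay below all 3 WKY arrays. The same order held before normalization between arrays, with 106, 100.4 and 95.9 units in SHR and 182, 138 and 169.5 in WKY.

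Mean log2 intensity of Htr1a was 6.70 ± 0.13 (SD, n = 3) for SHR and 7.36 ± 0.24 for WKY, and the strains differed by -0.67 ± 0.17 (SE), or 1.59-fold brighter in WKY with a 95% interval from 1.20-fold to 2.09-fold. The unadjusted p was 0.00627 and the adjusted p over all probes was 0.519 in limma, so the difference did not pass. An exact permutation test of the 6 arrays gave p = 0.1 (two-sided), the smallest that 3 against 3 arrays allow. Over the 16 alternatives that could test this probe the difference lay between -0.83 and -0.48 and the adjusted p in limma between 0.389 and 0.866, with an unadjusted p under 0.05 in all 16. These alternatives reuse the same arrays. The probe's standard deviation within strains was 0.19, and only 4.07% of the dimmest 25% of probes had a smaller one. With an intensity trend and robust prior the unadjusted p in limma was 0.0307. The spot is dim, with 23.0% of probes dimmer, and it is the only Htr1a probe, so no second probe stands beside it. Without WKY 1 the difference was -0.59. Neuronal marker scores overlapped between the strains (-0.34 to 0.29 in SHR, -0.05 to 0.29 in WKY), and the part of the marker lists that did not overlap in the Htr1a value was not tested.

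Htr1b, the related receptor on axon terminals, had SHR and WKY values that overlapped. It gave 967, 1129.8 and 1159.9 units in SHR and 981, 1295 and 1025 in WKY, with the lowest value on SHR 1 and the highest on WKY 2. The difference was -0.01 ± 0.16 (SE), with an interval from 0.756-fold to 1.30-fold. This is one of the more precise values among the members. The Htr1a and Htr1b differences were not tested against each other.

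**Figure D2:**
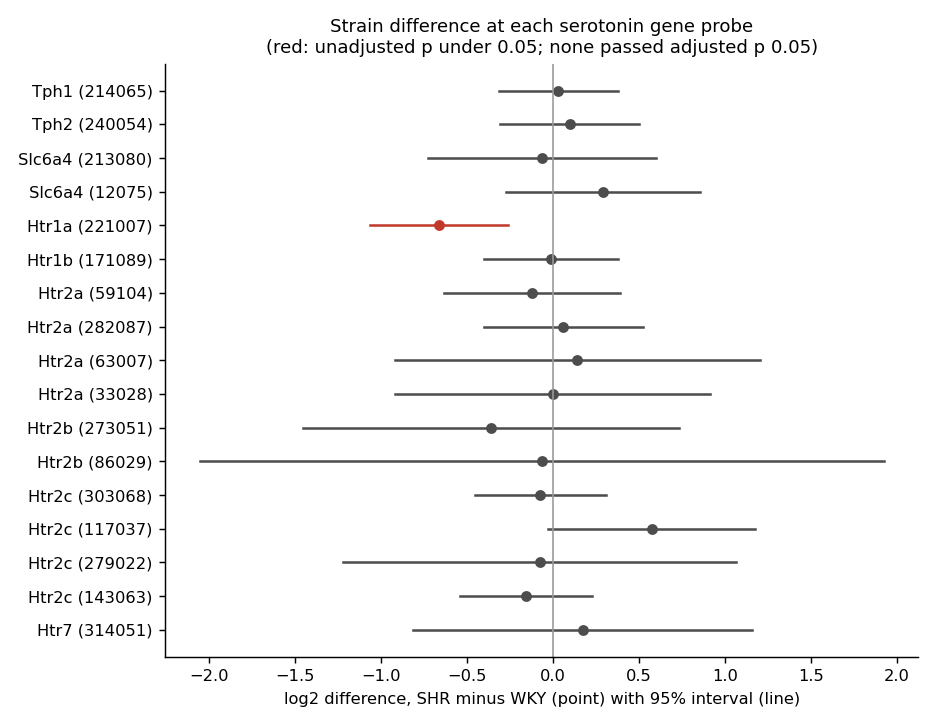
Difference of log2 intensity, SHR minus WKY, at each serotonin gene probe (points) with its 95% interval from limma (lines). The interval of the Htr1a probe, -1.07 to -0.26 and drawn in red for an unadjusted p under 0.05, is the 1 of 17 that does not cover 0, and that of Htr2b probe 86029, -2.06 to 1.93, is the widest.

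Htr2a, a phospholipase-coupled receptor of neurons and vascular muscle, was covered by 4 probes from 4 different source sequences, and none showed a strain difference. The brightest, probe 59104, gave 259, 199 and 206 units in SHR and 253, 185 and 293 in WKY, with both extremes in WKY. Its difference was -0.12 ± 0.21 (SE). The other probes lay below the 25th percentile on every array and gave 0.06 ± 0.19 (probe 282087), 0.14 ± 0.44 (probe 63007) and, for probe 33028, a value near 0 with an interval from -0.92 to 0.91. Probe 63007 ranged from 32.0 units on SHR 3 to 109.7 on SHR 2, a 3.43-fold spread inside 1 strain, and without SHR 2 its difference was -0.31. These intervals leave room for a strain difference of more than 1.5-fold either way at the 2 dimmest probes.

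Htr2b, a receptor of the same family that is known from heart, vessels and meninges, had the probe that varied most between arrays of a strain among the 17, probe 86029. Probe 273051 gave 198, 243 and 239.6 units in SHR and 601, 167 and 243 in WKY. Probe 86029, from the same transcript, gave 111, 216 and 190.0 units in SHR and 525, 49.1 and 203 in WKY. Both probes placed the arrays in the same order, with WKY 1 highest, then SHR 2, WKY 3, SHR 3 and SHR 1, and WKY 2 lowest. Inside WKY the highest array was 3.60 times the lowest at the first probe and 10.7 times at the second, against 1.23 and 1.94 times inside SHR.

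The strain difference of Htr2b was -0.36 ± 0.45 (SE) at probe 273051 and -0.07 ± 0.83 at probe 86029, and neither passed (limma, adjusted p of 0.849 and 0.988). Without WKY 1 the differences were 0.17 and 0.73, and without WKY 2 they were -0.76 and -0.98. Probe 86029 was also above 0 without SHR 1 (0.22) and without WKY 3 (0.05). The direction therefore rests on single arrays at both probes. Within strains the standard deviations were 0.68 and 1.27 (log2), larger than those of 96.0% and 99.6% of the probes between the 25th and 50th percentile of brightness, where both lie. WKY 1, where Htr2b was highest, had scores of -0.16 for fibroblast and meningeal markers, 0.31 for smooth muscle and pericyte markers, and -1.92 for interferon response genes. WKY 2, where it was lowest, had -0.23, 0.32 and 0.99. SHR 2, second highest for Htr2b, had 0.40, -0.10 and 0.63, and WKY 3, the next, had -0.47, -0.27 and 1.11. SHR 3 and then SHR 1 followed, with 0.53, -0.17 and -0.49 on SHR 3 and -0.07, -0.09 and -0.32 on SHR 1. The part of these lists in the Htr2b values was not tested.

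**Figure D3:**
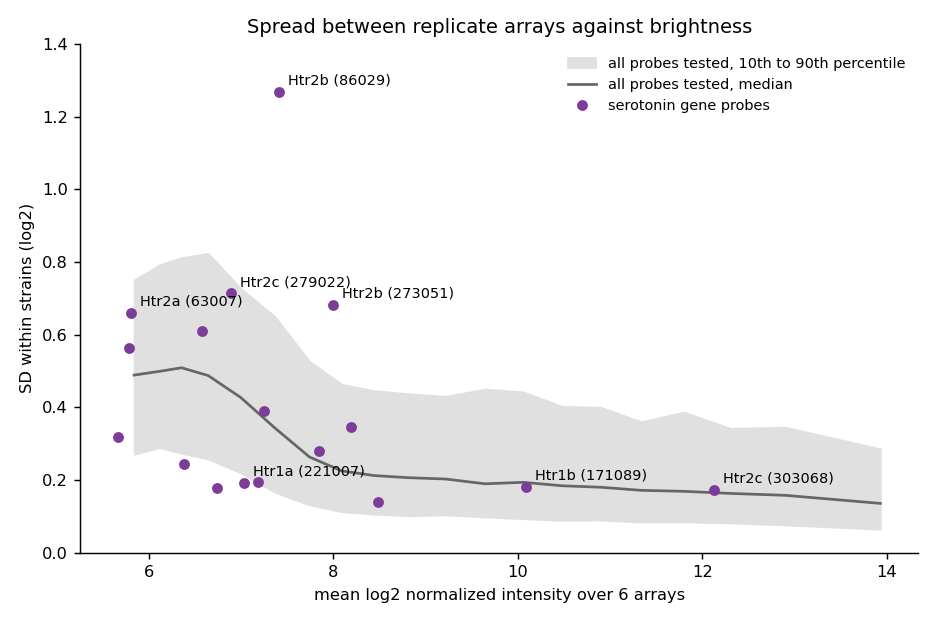
Standard deviation of log2 intensity between arrays of a strain against mean log2 intensity, for the serotonin gene probes (purple) and for all probes tested (line, median; band, 10th to 90th percentile). Both Htr2b probes lie above the band, at 0.68 and 1.27, and the Htr1a probe lies low for its brightness, at 0.19.

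Htr2c, whose transcript is edited and alternatively spliced, had the brightest spot of all 17 probes. Probe 303068 gave 4301, 5115 and 3783 units in SHR and 4464, 5029 and 4334 in WKY, and 85.8% of probes were dimmer. The WKY values fell inside the range of the SHR values. The difference was -0.08 ± 0.16 (SE), with an interval from 0.729-fold to 1.24-fold.

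The other Htr2c probes were much dimmer and did not repeat its values. Probe 279022, designed on the same transcript, gave 109, 123 and 116 units in SHR and 150.2, 56.1 and 216 in WKY, with close SHR values inside a wide WKY range and a difference of -0.08 ± 0.47. That difference was -0.64 without WKY 2 and 0.33 without WKY 3, so its direction rests on single arrays. Probe 143063, from an EST, gave 88.1, 111 and 106 units in SHR and 101, 129 and 110.1 in WKY, a difference of -0.16 ± 0.16.

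Probe 117037, from another EST, was the 1 of the 4 Htr2c probes with a difference above 0, with 278, 467 and 351 units against 234, 196 and 302 in WKY. SHR 1 lay below WKY 3, so the strains overlapped. The difference was 0.57 ± 0.25 (SE), 1.49-fold, with an interval from 0.980-fold to 2.26-fold, an unadjusted p of 0.0589 and an adjusted p of 0.655 in limma. It stayed above 0 in all 16 alternatives that could test it, between 0.38 and 0.75, and 5 of them gave an unadjusted p under 0.05. The deposited files do not show which exons the 4 probes cover, and the differences between probes were not tested.

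Of the ependymal and choroid plexus list, 8 of 10 genes had a probe, 6 above 0 and 2 below, with 3 higher and 1 lower at an unadjusted p under 0.05 and 0 past the adjusted threshold in limma, against 3.65% higher and 4.01% lower of all probes. Ttr, the transthyretin gene of choroid plexus epithelium, had SHR arrays at 2916, 5745 and 3459 units and WKY arrays at 278, 580.0 and 1419, and its difference of 2.66 ± 0.60 (SE) did not pass (limma, adjusted p of 0.468). Otx2, a transcription factor of that tissue, differed by 1.47 ± 0.47, with an adjusted p of 0.572 in limma, and by 0.95 without WKY 1. The 1 gene lower was Kcne2, a potassium channel subunit, named after its value was seen, at -0.48 ± 0.19. All its SHR arrays lay below all its WKY arrays, as at 7.48% of all probes. The mean score of the 8 genes was 0.39, 0.21 and 0.58 on the SHR arrays, against -0.39, -0.59 and -0.19 on those of WKY. Beside these, the bright Htr2c probe 303068 ranged over 1.35-fold across all 6 arrays. Probes 117037, 279022 and 143063 ranged over 2.39-fold, 3.85-fold and 1.47-fold. Of the 4, only probe 117037 was above 0, at 0.57. Whether choroid plexus cells contribute to any of the Htr2c values was not tested.

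**Figure D4:**
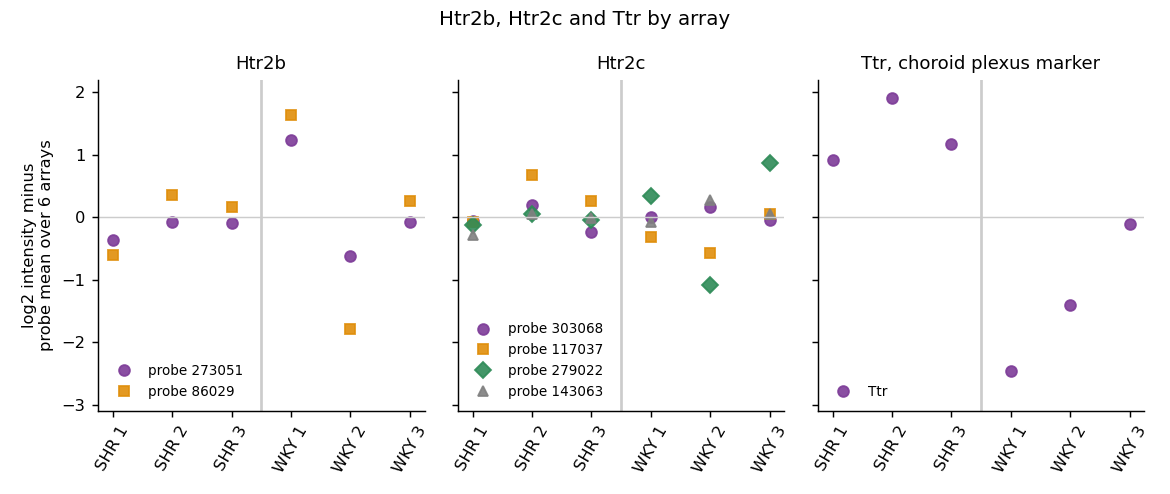
Log2 intensity of each Htr2b and Htr2c probe and of Ttr on each array, as the difference from that probe's mean over the 6 arrays, with SHR arrays left and WKY arrays right of the grey line. Both Htr2b probes peak on WKY 1 and are lowest on WKY 2, Htr2c probe 303068 stays near 0 throughout, and Ttr is higher on every SHR array than on any WKY array.

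Htr7, a receptor that raises cyclic AMP, had 1 dim probe with 82.6, 91.8 and 136 units in SHR and 165, 72.5 and 60.2 in WKY. WKY 1 was the highest of the 6 arrays and WKY 3 the lowest. The difference was 0.17 ± 0.41 (SE), and the interval from 0.569-fold to 2.23-fold is too wide to speak of equal levels. Without WKY 1 it was 0.61, and without WKY 3 it was -0.12.

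The remaining serotonin receptors formed a list of 7 genes, all with a probe. At the brightest probe of each, 5 were above 0 and 2 below, the median was 0.02 (log2), against -0.01 for all probes, and 0 passed the adjusted threshold, with 1 higher and 0 lower at an unadjusted p under 0.05, where 3.65% and 4.01% of all probes stood. That 1 was Htr3b, the subunit that joins Htr3a in the serotonin-gated channel. Its SHR arrays, at 119, 128 and 108 units, all lay above its WKY arrays, at 73.3, 77.1 and 69.7, as 6.35% of all probes did. Each of these values lay below the 25th percentile of its array, and 15.9% of probes were dimmer. The difference was 0.68 ± 0.13 (SE, adjusted p of 0.349 in limma), and its second probe gave 0.51 ± 0.51. The unadjusted p in limma was 0.00154, and 0.0377 with an intensity trend and robust prior.

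Htr1d and Htr1f, both of the inhibitory family, gave -0.44 ± 0.24 (-0.70 without SHR 2) and 0.52 ± 0.56. The Htr1f value rests on SHR 2, at 805 units where the other 5 arrays lay between 185 and 259, and without SHR 2 it was -0.15. Htr5a differed by 0.08 ± 0.13, and by 0.16 at its other probe.

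Enzymes, vesicular carriers and uptake carriers of serotonin formed a list of 15 genes, 14 with a probe. Of these 14, 8 were above 0 and 6 below, with a median of 0.05. At an unadjusted p under 0.05 in limma stood 0 of the 14, against 7.65% of all probes. The median interval of the list reached 0.45 (log2) to either side of its difference, so equal levels are not shown. Ddc, which forms serotonin from its precursor, gave 0.44 ± 0.29 (0.16 to 0.65 over the alternatives), and Slc29a4, a low-affinity plasma membrane carrier of monoamines, gave -0.40 ± 0.32, which was -0.089 without WKY 2, the array with its highest value. Qdpr, which regenerates the cofactor of the hydroxylases, gave -0.16 ± 0.13, and Aldh2, an aldehyde dehydrogenase, gave 0.23 ± 0.21 (0.11 to 0.40 when single arrays were left out).

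Transcription factors that specify serotonin neurons were measured for 6 of 9 genes listed, 3 above 0 and 3 below, with a median of -0.03. At an unadjusted p under 0.05 in limma stood 0 of the 6, against 7.65% of all probes. Fev gave 530.4, 673 and 629 units in SHR and 679, 646 and 636 in WKY, a difference of -0.10 ± 0.14, and it was 0.07 in intensities not normalized between arrays. Lmx1b, which is needed for the identity of these neurons, gave -0.85 ± 0.46 at a spot with 7.03% of probes dimmer, with 25.2 units on SHR 2 as its lowest value, and -0.34 without SHR 2. Gata3 gave 0.22 ± 0.26 and the midbrain and hindbrain factor En2 gave 0.16 ± 0.15, with -0.25 at its other probe.

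Among G proteins, effectors and scaffolds that serve serotonin receptors, 18 of 20 genes had a probe, 10 above 0 and 8 below, with a median of 0.07, 1 higher and 1 lower at an unadjusted p under 0.05 (3.65% and 4.01% of all probes) and 0 past the adjusted threshold in limma. The strains did not overlap at 2 genes higher in SHR and 1 lower, as at 6.35% and 7.48% of all probes. S100a10, the adaptor p11 that binds Htr1b and brings it to the cell surface, had SHR arrays at 605, 683 and 866 units, all above its WKY arrays at 474, 498 and 398. Its difference was 0.64 ± 0.18 (SE, adjusted p of 0.538 in limma). Gna11, a G protein of the phospholipase pathway, gave -0.44 ± 0.18 (adjusted p of 0.646), and -0.33 at its other probe. Mpdz, a scaffold that binds Htr2c, gave 0.48 ± 0.21. Gnai2, an inhibitory G protein, gave -0.25 ± 0.13, with all SHR arrays below all WKY arrays.

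**Figure D5:**
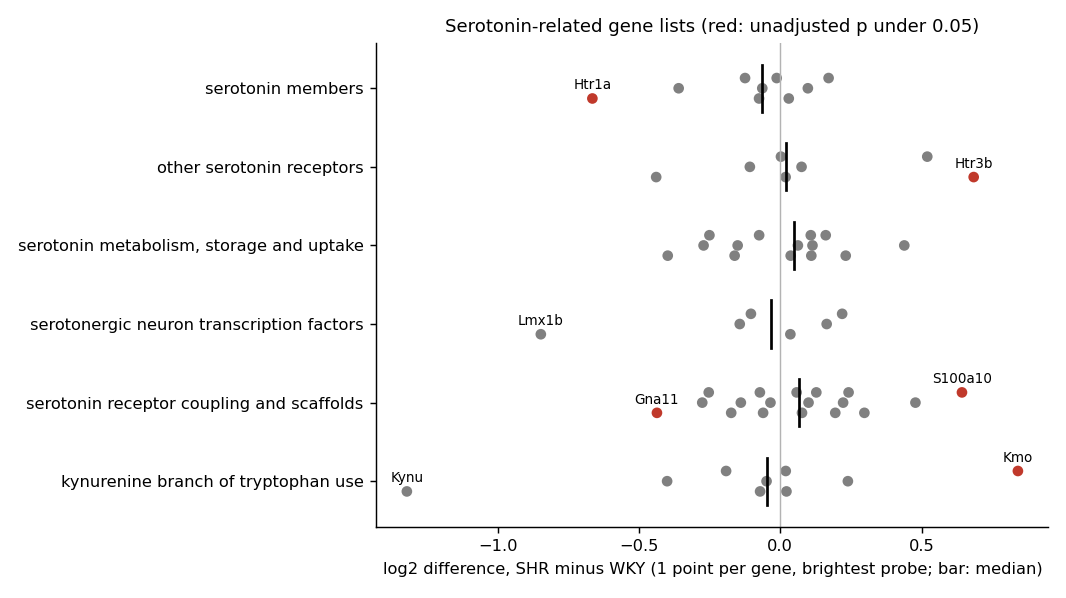
Difference of log2 intensity, SHR minus WKY, at the brightest probe of each gene (points, red for an unadjusted p under 0.05) in the serotonin gene list and 5 related lists, with black bars at the list medians. All 6 medians lie between -0.06 and 0.07, and the red points are Htr1a, Htr3b, S100a10, Gna11 and Kmo, none of which passed an adjusted p of 0.05.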

How the data were processed

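The authors read spot intensity with the CodeLink software, subtracted background and quantile-normalized the arrays, per the labels. They also describe leaving out values near the negative controls and genes not valid throughout 1 strain, but the series table has 615 entries per array that are not above 0, so that step is not visible in it. Software versions were not stated in the sources used. The deposited series table (equal quartiles in all 6 columns) was the main source, and the per-sample intensity tables, not normalized between arrays, served as alternatives. Entries not above 0 were treated as missing before taking log2. A probe needed 3 valid values in either strain and 2 or more in the opposite strain to be tested with limma 3.58.1 (R 4.3.3) (two-sided, p-values adjusted by Benjamini-Hochberg across the whole table). The steps were tested on simulated data. Gene names come from the platform annotation (16753 probes with 1 symbol, 165 with several, which were not named, and 16931 with none). RefSeq's GRCr8 gene table updated 1 symbol. No coordinates are given, since neither the labels nor the deposited files name a genome build. List scores are means of log2 values centred per gene (brightest complete probe). Members, lists and the naming rule (all member probes, up to 4 genes per pathway list and 2 per marker list by smallest p) were chosen with earlier results of these data known. Figures used matplotlib 3.10.9.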

Additional observations from a re-analysis of the deposited data

How the results depend on the processing

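Under 18 alternatives 0 serotonin gene probes passed an adjusted p of 0.05, and the smallest adjusted p in limma was 0.389, for Htr1a. The count over all probes was 0, and became 17 with an offset of 50 units before log2, 5 with probes valid on all 6 arrays, 18 without the dimmest 25% of probes (which drops 8 of the 17 serotonin probes, Htr1a among them), 28 with an intensity trend and robust prior, 5 with array weights, 9 with the brightest probe of each gene and 13 at an adjusted p of 0.10. It was 0 under a replicate block and under each of the remaining alternatives. Same-numbered arrays deviated from their strain means with correlations of 0.0011, 0.22 and -0.13 across probes, so the numbers were not taken to pair the arrays. Htr1a, Slc6a4 probe 12075 and Htr2c probes 117037 and 143063 kept their direction in all alternatives that could test them. The other 13 probes turned in at least 1, all with intervals that cover 0. Median-centred per-sample intensities gave -0.048 for Tph2, 0.036 for Htr1b, -0.16 and -0.030 for Htr2a probes 282087 and 63007, and -0.045 for Htr7. Unnormalized intensities, in which the median of all probes was 0.12, gave 0.18 for Htr1b, -0.014 for Htr2a probe 282087, 0.092 for Htr2c probe 303068 and 0.067 for Fev. Cyclic loess gave 0.011 for Htr1b and 0.028 for Htr2a probe 33028, which was 0.0053 with array weights. Leaving out single arrays gave ranges of -0.065 to 0.091 for Tph1, -0.36 to 0.090 for Slc6a4 probe 213080, -0.090 to 0.11 for Htr1b, and, for Htr2a, -0.31 to 0.020 (59104), -0.076 to 0.19 (282087), -0.31 to 0.58 (63007) and -0.29 to 0.32 (33028). They were -0.76 to 0.17 and -0.98 to 0.73 for Htr2b probes 273051 and 86029, -0.19 to 0.028 and -0.64 to 0.33 for Htr2c probes 303068 and 279022, and -0.12 to 0.61 for Htr7. They were -0.15 to 0.91 for Htr1f, -0.011 to 0.15 for Htr5a and -0.056 to 0.43 for Gata3. The cause was not tested for any of these.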

Other observations

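Tryptophan that is not used for serotonin is mostly broken down along the kynurenine branch. Of 10 genes listed for this branch and for tryptophan uptake, 9 had a probe, 4 above 0 and 5 below, with a median of -0.05 (log2), 1 higher and 0 lower at an unadjusted p under 0.05 (3.65% and 4.01% of all probes), and 0 past an adjusted p of 0.05 in limma. Kmo, the hydroxylase of kynurenine, had SHR arrays at 1274, 1139 and 1146 intensity units, all above its WKY arrays at 378, 909 and 841, as 6.35% of all probes were. Its difference was 0.84 ± 0.34 (SE, adjusted p of 0.646 in limma) and was 0.70 ± 0.22 at its other probe. Without WKY 1, its lowest array, the difference of 0.84 was 0.44. Kynu, which splits kynurenine, gave -1.32 ± 0.76 and rests on WKY 2, at 512 units where the other 5 arrays lay between 43.6 and 85.4. Without WKY 2 it was -0.40. Tdo2, which opens the ring of tryptophan, gave 0.24 ± 0.15, also with all SHR arrays above all WKY arrays. Slc7a5, the large neutral amino acid carrier that brings tryptophan into cells, gave -0.40 ± 0.22.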
